A study of Mus musculus with 6 samples.

Results

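The genes described here form the signalling route of the interleukin 6 family: the cytokines Lif, Clcf1 and Cntf, the receptor subunits Osmr, Lifr, Il6st and Cntfr, the kinase Jak2, the transcription factor Stat3 and its feedback inhibitor Socs3. Members were all probe sets whose only gene symbol in the platform annotation is one of these 10 names. This gave 26 of 45037 probe sets, for 9 of the genes. Cntf, which encodes ciliary neurotrophic factor, shares its only probe set with other gene symbols, and no value is given for it.

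Retinal RNA was measured on 6 Affymetrix arrays. There were 3 arrays of wild type 129 mice and 3 of prCAD -/- mice, in which Cdhr1, the gene of photoreceptor cadherin, is knocked out, and which the submitters call a model for retinal degeneration. All mice were about 4 weeks old and untreated as far as the labels say, and each array held the pooled retinas of 3 mice. The strain of the mutant mice, the design of the deleted allele and the sex of the animals are not stated in the labels. A group difference can thus come from the loss of Cdhr1 or from other alleles, and these cannot be told apart. In GRCm38.p6 none of the members lies on the chromosome of Cdhr1.

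Most cytokines of this family bind receptor pairs that contain Il6st, the signal-transducing subunit they share. Janus kinases held by the receptors then phosphorylate STAT3, which enters the nucleus and induces genes that include Socs3. The SOCS3 protein blocks the receptors in turn. In injured or degenerating retina, LIF made by Müller glia is known to act through this route on glia and photoreceptors.

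The largest differences among the members, all toward higher levels in mutant retina, belonged to Stat3, Socs3 and Osmr. The Stat3 probe set with the smallest p read about 2.08-fold higher, the brightest Osmr probe set 3.41-fold and 1 Socs3 probe set 2.92-fold. Only that Socs3 probe set passed the test over all 45037 probe sets, so only Socs3 is said to have risen. Its mean lies under the median of all values, and its probes may also bind other transcripts. The brightest Socs3 probe set read 1.71-fold higher and did not pass. The ligands, the other receptor subunits and Jak2 differed by at most 0.37 on the log2 scale at every probe set. Among these, 1 probe set each of Il6st and Lif had all mutant arrays above all wild type arrays.

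The promoters of these 3 genes are shown because they had the largest differences between mutant and wild type and because STAT3 is itself a DNA-binding factor. Each line gives the 250 bases before the gene start, 5′ to 3′ on the gene's strand, from RefSeq in GRCm38.p6. The Socs3 sequence is chr11:117969367-117969616, the Stat3 sequence chr11:100939541-100939790 and the Osmr sequence chr15:6874314-6874563, all on the minus strand. Capitals mark a match to TTCNNNGAA, the palindromic core that STAT proteins bind.
Socs3: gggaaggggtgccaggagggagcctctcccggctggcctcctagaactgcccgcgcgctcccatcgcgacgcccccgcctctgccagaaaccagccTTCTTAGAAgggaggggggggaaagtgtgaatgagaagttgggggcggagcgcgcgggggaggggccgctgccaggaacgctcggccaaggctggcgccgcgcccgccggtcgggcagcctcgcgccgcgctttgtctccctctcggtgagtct
Stat3: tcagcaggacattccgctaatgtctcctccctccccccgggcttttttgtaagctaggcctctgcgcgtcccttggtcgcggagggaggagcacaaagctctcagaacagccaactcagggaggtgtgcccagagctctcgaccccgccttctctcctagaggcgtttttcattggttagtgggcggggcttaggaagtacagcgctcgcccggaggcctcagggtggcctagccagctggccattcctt
Osmr: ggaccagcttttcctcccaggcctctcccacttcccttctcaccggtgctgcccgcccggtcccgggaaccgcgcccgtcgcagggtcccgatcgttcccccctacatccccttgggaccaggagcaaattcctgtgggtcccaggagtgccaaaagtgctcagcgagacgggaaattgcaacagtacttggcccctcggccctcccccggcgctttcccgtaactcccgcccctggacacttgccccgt
The Socs3 sequence holds 1 match, TTCTTAGAA, whose first base lies 154 bases before the gene start. The Stat3 and Osmr sequences hold none. TTCNNNGAA reads the same on both strands, and 8.3% of 32851 mouse promoter windows of 300 bases hold it. The shorter spacing TTCNNGAA, found in 8.52% of the windows, was absent from all 3 as well. It occurred once in the Jak2 window, as TTCCCGAA, with its first base 182 bases before the gene start, and once in a Cntfr window, as TTCTAGAA, 120 bases before the start. Of the members 9 had a promoter window, 15 windows in all, and Clcf1 is named only. These matches describe the letters of the windows and show no binding.

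Rod markers were bright in all arrays. Lens markers were bright too, averaging 9.64 to 11.19 in wild type and 10.57 to 11.34 in mutant arrays on the log2 scale. The 4 measured rod markers together averaged 12.33 to 12.55 in wild type and 12.33 to 12.47 in mutant arrays on the log2 scale, with a median difference of -0.12. Of these, Sag differed by 0.26, without overlap, Gnat1 by -0.05, Nrl by -0.19 and Pde6b by -0.24. In contrast, the 3 measured blood markers Hba-a1, Alas2 and Ptprc lay under 4.76, the median of all values. The targeted gene Cdhr1 read 11.32, 11.36 and 10.98 in wild type and 3.94, 4.20 and 4.34 in mutant arrays. It fell by 7.06 (SE 0.15, limma adjusted p = 2.18e-05). The arrays had medians between 4.74 and 4.79. Wild type replicate 3 and the array it resembles, mutant replicate 3, deviated most from their group means, by 0.163 and 0.171 on average against 0.102 to 0.135 for the others. Where leaving both out moved a member difference above 0.1 by over 1.5 times, the value without them is given.

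The first group of members, the ligands, showed small differences. Lif, which encodes leukemia inhibitory factor, read 4.47, 4.33 and 3.94 in wild type and 4.50, 4.64 and 4.72 in mutant arrays at its brighter probe set. All 3 mutant arrays lay above the wild type arrays, but by as little as 0.03 within pair 1. The difference was 0.37 (SE 0.15, 95% interval 0.01 to 0.73, adjusted p = 1.00), and pair 3 alone showed 0.78. The other Lif probe set differed by 0.25 (SE 0.19), and there the groups overlapped. Without both arrays numbered 3, a choice made after seeing the data, the first difference was 0.17 and the second -0.03. Both Lif probe sets lie under the median of all values, a range in which background limits what a difference can show.

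Clcf1 encodes cardiotrophin-like cytokine factor, a ligand of the CNTF receptor. Its probe sets read 4.78 to 4.97, 4.14 to 4.22 and 2.38 to 2.40 in wild type arrays. The mutant arrays read 4.77 to 5.09, 4.18 to 4.23 and 2.33 to 2.86. All 3 pairs of ranges overlapped, and the differences were 0.08, 0.02 and 0.13, with the widest 95% interval running from -0.23 to 0.49. The last of these rested on mutant replicate 3, and it was -0.04 without that array, and again -0.04 without both arrays numbered 3.

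Among the receptor subunits, Osmr differed most. Osmr, the oncostatin M receptor subunit that pairs with Il6st, read 4.47, 4.46 and 3.88 in wild type and 6.31, 5.79 and 6.03 in mutant arrays at its brightest probe set. The lowest mutant array lay above the highest wild type array by more than 1 log2 unit. The difference was 1.77 (SE 0.20, 95% interval 1.29 to 2.25), with 1.83, 1.33 and 2.15 within the pairs. It did not pass over all probe sets (limma adjusted p = 0.160, and 0.0625 with the replicate block). It passed with array weights, at a difference of 1.5 (adjusted p = 0.0375), and the adjusted p over the alternatives ran from 0.0375 to 0.655. The share of all probe sets that passed with array weights was not counted. Only 0.0200% of all probe sets had a larger difference. The wild type level lies below the median of all values, so 3.41-fold may understate the change.

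The other Osmr probe sets moved less. The second read 3.90, 5.0 and 4.17 in wild type and 5.08, 5.13 and 5.22 in mutant arrays, a difference of 0.79 (SE 0.26, adjusted p = 1.00). Its groups did not overlap, but wild type replicate 2 lay only 0.12 below its mutant partner. The dimmest, at 3.04 to 3.23 in wild type and 3.08 to 3.31 in mutant arrays, differed by 0.08 (SE 0.10), with overlapping groups.

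Lifr, the subunit through which LIF and CNTF signal, lies near Osmr on the same chromosome, with 3 genes between them in GRCm38.p6. Its brightest probe set read 7.51, 7.51 and 7.35 in wild type and 7.65, 7.61 and 7.47 in mutant arrays. These ranges overlapped, although the mutant array was higher in each pair, by 0.14, 0.10 and 0.12. The difference was 0.12 (SE 0.10, 95% interval -0.11 to 0.35). The other Lifr probe sets differed by 0.23 (SE 0.10) and 0.12 (SE 0.15), also with overlapping groups. The latter was 0.03 without both arrays numbered 3.

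Il6st, the subunit common to most of the family, gave different readings at its 4 probe sets. The brightest read 7.15, 6.92 and 7.02 in wild type and 7.40, 7.29 and 7.46 in mutant arrays. The groups did not overlap there, and the difference was 0.35 (SE 0.10, 95% interval 0.11 to 0.59, adjusted p = 1.00). The other 3 differed by -0.09 (SE 0.30), 0.07 (SE 0.28) and 0.002 (SE 0.13), and their groups overlapped. In pair 1 these 3 differed by -0.77, -0.34 and -0.33, while in pairs 2 and 3 the mutant array was higher. Without both arrays numbered 3 they differed by -0.33, 0.009 and -0.05. The probe sets of this gene thus do not give 1 direction.

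Cntfr encodes the CNTF-binding subunit, which has no signalling domain of its own. It read 6.64, 6.90 and 6.88 in wild type and 6.83, 6.90 and 6.87 in mutant arrays at its brighter probe set, a difference of 0.06 (SE 0.10, 95% interval -0.18 to 0.30). The dimmer one differed by 0.21 (SE 0.21), mainly through pair 1 at 0.56, and the groups overlapped at both.

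Jak2, a kinase that works downstream of many cytokine receptors, was the member with the smallest differences. Its brighter probe set read 7.22, 7.20 and 7.24 in wild type and 7.27, 7.34 and 7.15 in mutant arrays. The difference was 0.03 (SE 0.09, 95% interval -0.18 to 0.24). The other probe set differed by -0.09 (SE 0.12), with overlapping groups.

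Stat3 read higher on average in mutant retina at each of its 4 probe sets. The one with the smallest p read 7.10, 7.24 and 7.37 in wild type and 8.36, 8.17 and 8.34 in mutant arrays. The lowest mutant array lay well above the highest wild type array. The difference was 1.06 (SE 0.11, 95% interval 0.80 to 1.31), with 1.26, 0.93 and 0.97 within the pairs. Only 8 of all probe sets had a smaller p, yet it did not pass (limma adjusted p = 0.123, and 0.0634 with the replicate block). It passed with array weights (adjusted p = 0.0171), and the adjusted p over the alternatives ran from 0.0171 to 0.638. Here too, the share of all probe sets passing with array weights was not counted.

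A second Stat3 probe set gave a similar size, 5.13, 5.23 and 4.98 in wild type against 5.80, 6.04 and 6.25 in mutant arrays, a difference of 0.92 (SE 0.14, adjusted p = 0.416). The brightest Stat3 probe set read 7.03, 7.04 and 7.71 in wild type and 7.66, 7.97 and 9.38 in mutant arrays. There both arrays numbered 3 read highest in their group, and the groups overlapped. Its difference was 1.08 (SE 0.44), but 0.56 without mutant replicate 3 and 0.78 without both arrays numbered 3. The fourth probe set differed by only 0.21 (SE 0.09), from 5.13 to 5.29 in wild type to 5.42 to 5.46 in mutant arrays.

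Socs3, the feedback inhibitor that STAT3 induces, was higher at all 3 of its probe sets, with no overlap between the groups at any. The one that passed read 3.80, 3.96 and 4.06 in wild type and 5.42, 5.50 and 5.55 in mutant arrays. Socs3 rose there by 1.55 (SE 0.10, limma adjusted p = 0.0150), with 1.62, 1.53 and 1.49 within the pairs, and passed with the replicate block as well (adjusted p = 0.00863). The adjusted p over the alternatives ran from 0.00145 to 0.259. The call was lost without wild type replicate 1 (adjusted p = 0.161), without wild type replicate 2 (adjusted p = 0.170), without mutant replicate 1 (adjusted p = 0.126) and without mutant replicate 2 (adjusted p = 0.259), at differences of 1.48 to 1.58.

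This probe set, 1455899_x_at, carries the manufacturer's x suffix, which marks probes that may also bind other transcripts, and its wild type level lies below the median of all values. The brightest Socs3 probe set, 1416576_at, has no such suffix. It read 5.41, 5.66 and 5.61 in wild type and 6.22, 6.54 and 6.24 in mutant arrays, a difference of 0.77 (SE 0.12, adjusted p = 0.479). The third, also with the x suffix, differed by 0.80 (SE 0.17, adjusted p = 0.902). The 3 probe sets thus had 1 direction and different sizes.

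**Figure D1:**
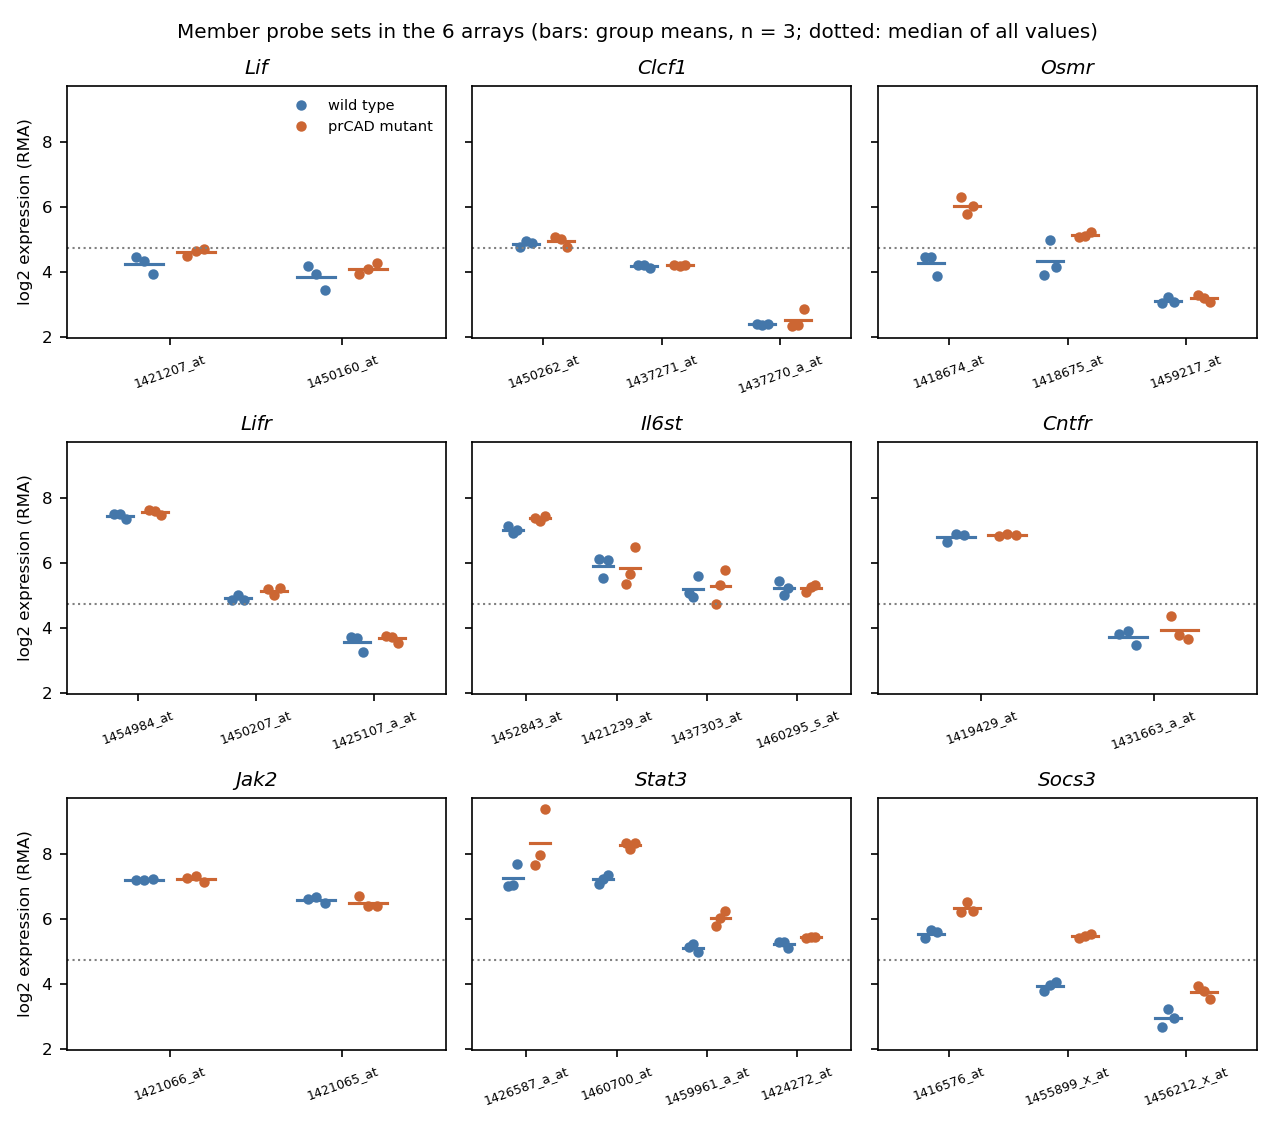
Log2 expression (vertical axis) of each member probe set (horizontal axis, by its identifier) in 3 wild type arrays (blue) and 3 prCAD mutant arrays (orange), with bars at the group means and a dotted line at 4.76, the median of all values. The groups are apart at all 3 Socs3 probe sets, at 3 of 4 for Stat3 and at 2 of 3 for Osmr, while those of Lifr, Cntfr, Clcf1 and Jak2 overlap.

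Counted over all members, 1 of 26 probe sets was higher and 0 lower past an adjusted p of 0.05, where 0.00888% of all probe sets were higher and 0.00222% lower. With the replicate block there was again 1 higher and 0 lower, against 0.0266% and 0.00666%. At an unadjusted p under 0.05, 10 member probe sets were higher and 0 lower, while 1.68% of all probe sets were higher and 1.34% lower. In 10 member probe sets all mutant arrays lay above all wild type arrays, against 4.73% of all probe sets, and in 0 they lay below, against 3.07%. Of the 10 probe sets without overlap, 8 belong to Stat3, Socs3 and Osmr, and the others to Lif and Il6st. Several probe sets thus read the same gene. Counted by gene at the brightest probe set, 0 of 9 passed an adjusted p of 0.05, on group or with the replicate block. Of all genes 0.011% were called higher and 0.0055% lower on group, and 0.0385% and 0.0055% with the block. At an unadjusted p under 0.05 on group, 5 of 9 were higher, beside 2.33% of all genes. By the same count 4 were higher without overlap, beside 5.89%. The median difference over the 9 genes at their brightest probe sets was 0.35, beside 0.02 over 18193 genes, and it was 0.25, 0.30 and 0.44 within the pairs. It was 0.18 without both arrays numbered 3, and 0.16 when all probe sets of a gene were averaged.

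**Figure D2:**
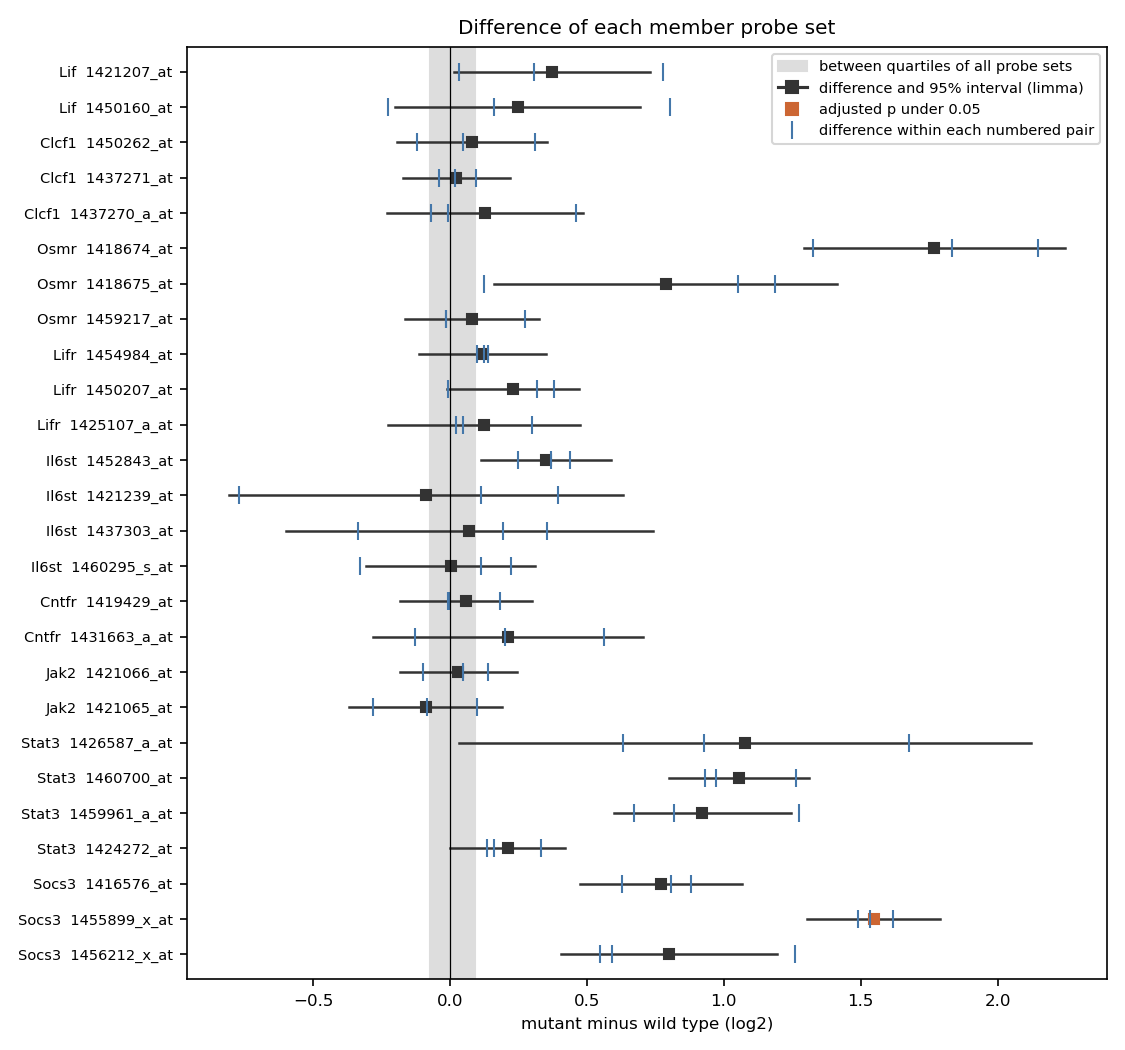
Difference between mutant and wild type on the log2 scale (horizontal axis) for each member probe set (vertical axis), with squares and lines for the limma estimate and its 95% interval, an orange square for an adjusted p under 0.05, blue ticks for the difference within each numbered pair, and a grey band between the quartiles of all probe sets. The Stat3, Socs3 and Osmr probe sets reach from 0.08 to 1.77, and all other members lie between -0.09 and 0.37.

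At their brightest probe sets, the rest of the family and of the JAK-STAT machinery gave 0 calls in either direction among 37 measured genes of 42. This held for limma on group and with the replicate block. Counted in the same way, the 9 measured members also gave 0 calls, as the called Socs3 probe set is not the brightest of its gene. Over all genes at their brightest probe sets 0.011% were called higher and 0.0055% lower on group, and 0.0385% and 0.0055% with the block, so a count of 0 among 37 does not set these genes apart. At an unadjusted p under 0.05, 2 were higher and 0 lower on group, beside 2.33% and 1.09% of all genes. With the block 2 were higher and 1, Jak1, was lower, beside 4.88% and 2.57%. The first was Jak3, a Janus kinase of lymphoid cytokine receptors, at 5.31, 5.54 and 5.41 in wild type and 6.02, 5.74 and 5.99 in mutant arrays. It differed by 0.49 (SE 0.12, adjusted p = 1.00), with no overlap. The other was Stat5b, a further STAT factor, which differed by 0.25 (SE 0.08).

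None of the 7 other ligands measured passed the test. The interleukin genes Il6 and Il11 differed by 0.21 (SE 0.16) and 0.11 (SE 0.10), and Osm, which encodes the cytokine that OSMR binds, by -0.04 (SE 0.13). Of the receptor subunits, Il6ra differed by -0.10 (SE 0.10) and Il31ra, a further partner of Osmr, by 0.08 (SE 0.10). Il6, at 2.47 in wild type, lies far below the median of all values. Among the kinases and regulators, Jak1, a main kinase of Il6st, differed by -0.26 (SE 0.18 on group, 0.08 with the replicate block, where the adjusted p was 0.597). Its pairs differed by -0.25, -0.24 and -0.28, while its groups overlapped. Socs2 differed by 0.14 (SE 0.09) and Pias4, a STAT inhibitor, by -0.18 (SE 0.10). The median over the 37 genes was 0.03, close to the 0.02 of all genes.

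Genes that STAT3 is known to induce, with retinal genes that respond to LIF, gave a mixed picture. None of 32 passed on group, against 0.011% of all genes higher and 0.0055% lower. With the replicate block 1, Cebpd, passed (2.52 higher, adjusted p = 0.0379), against 0.0385% of all genes higher and 0.0055% lower. At an unadjusted p under 0.05, 9 were higher and 1 lower (2.33% and 1.09% of all genes). The groups did not overlap in 12 that were higher and 1 that was lower, against 5.89% and 2.88% of all genes. The median difference was 0.18, with 0.25, 0.11 and 0.28 within the pairs, and its quartiles were 0.05 and 0.66. It was 0.12 without both arrays numbered 3.

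The largest differences in this list belonged to Edn2 and Cebpd. Edn2, which encodes endothelin 2, read 5.13, 6.23 and 4.78 in wild type and 9.76, 8.72 and 8.18 in mutant arrays, a difference of 3.51 (SE 0.49, adjusted p = 0.297). Cebpd, an acute phase transcription factor, read 5.33, 5.82 and 4.56 in wild type and 8.07, 7.72 and 7.46 in mutant arrays (adjusted p = 0.217 on group). In both genes the groups were far apart and the spread within a group was wide. Gfap, the glial filament gene, differed by 1.6 (SE 0.32, adjusted p = 0.791) and the protease inhibitor gene A2m by 1.24 (SE 0.29, adjusted p = 1.00). Bcl3 and Junb, a nuclear co-regulator and a transcription factor, differed by 0.96 (SE 0.13) and 0.85 (SE 0.17). Between the quartiles of all genes, -0.05 and 0.10, lay Myc at 0.07 (SE 0.10), Icam1 at 0.003 (SE 0.09) and Pim2 at 0.003 (SE 0.10). The gene whose mutant arrays all lay below the wild type arrays was Hamp, which encodes an iron hormone. It read 4.24, 4.20 and 4.38 in wild type and 4.01, 4.02 and 4.04 in mutant arrays, a difference of -0.25 (SE 0.09, adjusted p = 1.00). This probe set, the brighter of 2 for Hamp, carries the x suffix, and its mean lies under the median of all values.

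**Figure D3:**
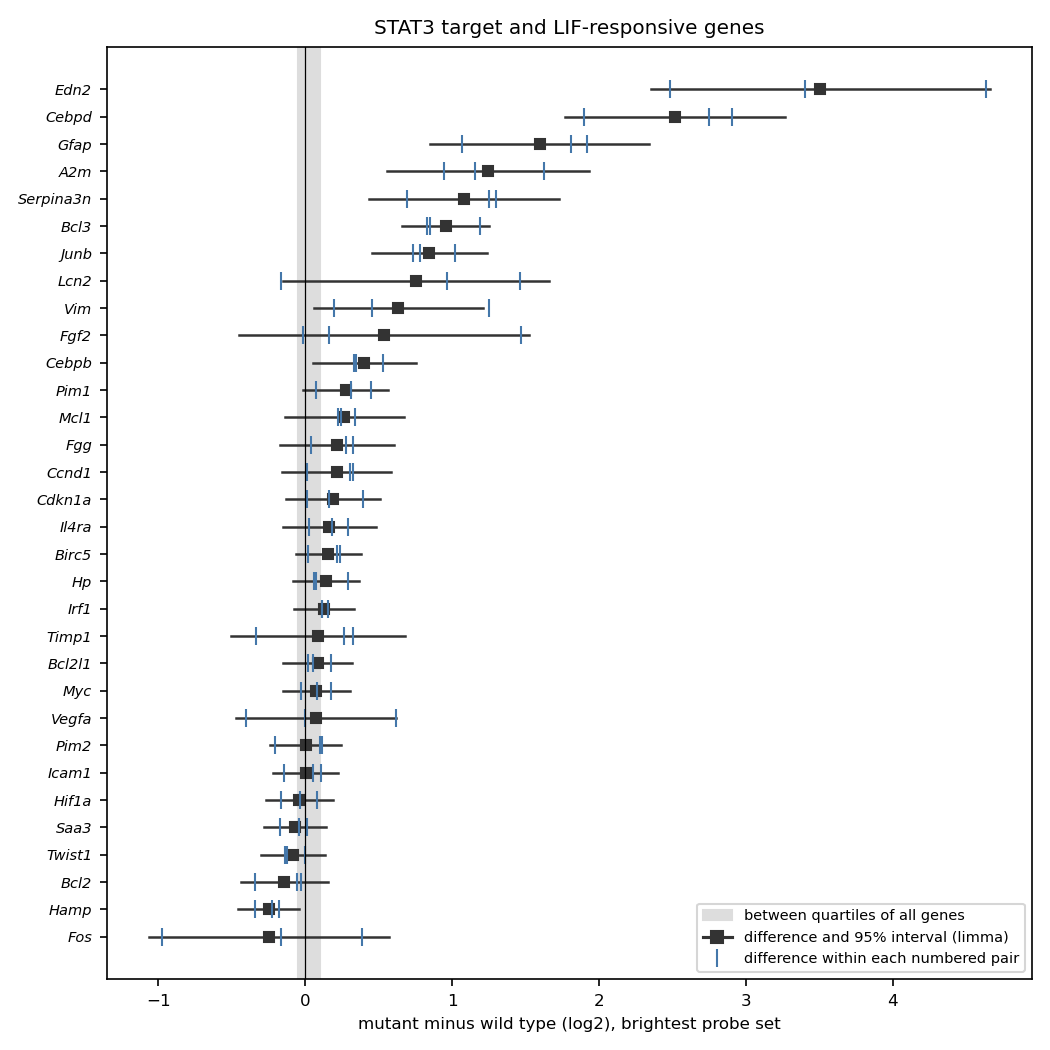
Difference between mutant and wild type on the log2 scale (horizontal axis) for 32 STAT3 target and LIF-responsive genes (vertical axis) at their brightest probe sets, with the limma estimate and 95% interval in black, the differences within the numbered pairs as blue ticks and a grey band between the quartiles of all genes. Edn2 (3.51) and Cebpd (2.52) lie farthest to the right, and most of the list lies between -0.25 and 0.66.

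Markers of cells that carry this route or could add RNA moved in part with these results. The counts without overlap below stand beside 5.89% of all genes higher and 2.88% lower. Of 4 measured astrocyte markers 3 were without overlap higher in mutant arrays, and the summed linear signal of the list ran from 142 to 217 in wild type and from 281 to 387 in mutant arrays. One of them, Gfap, is also a STAT3 target. For microglia and macrophages 4 of 8 were without overlap higher, with sums of 343 to 383 and 456 to 507. Cx3cr1, which is among these 4, and P2ry12, Aif1 and Itgam had means under the median of all values. Tmem119, with a mean above it, differed by 0.09 with overlapping groups. For the pigment epithelium 6 of 8 were higher without overlap, with sums of 288.5 to 849 and 1331 to 1749. The median difference of this list was 0.47, 0.31 and 0.74 within the pairs. Its brightest gene, Ttr, read 9.03, 8.32 and 5.68 in wild type and 9.91, 10.16 and 9.77 in mutant arrays. For Müller glia only Sox9 of 7 was higher without overlap, and the sums overlapped, at 4513 to 5135 and 4525 to 4895. All 5 ganglion cell markers had negative differences, with a median of -0.36, and in 2 of them, Rbpms and Sncg, all mutant arrays lay below the wild type arrays. All 6 lens markers had positive differences, with a median of 0.63 and overlapping groups. Their median was 0.08, 0.11 and 1.61 within the pairs, and wild type replicate 3 was the lowest array at each. The lens sums ran from 9903 to 23920 in wild type and from 18450 to 27040 in mutant arrays. Of 6 blood vessel markers 1 was higher and 1 lower without overlap. RMA values have no zero, so no marker is at 0. The part of these cells in the differences of Stat3, Socs3 and Osmr was not tested. In whole retina, a change in the number of cells of a type and a change in RNA per cell cannot be told apart.

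**Figure D4:**
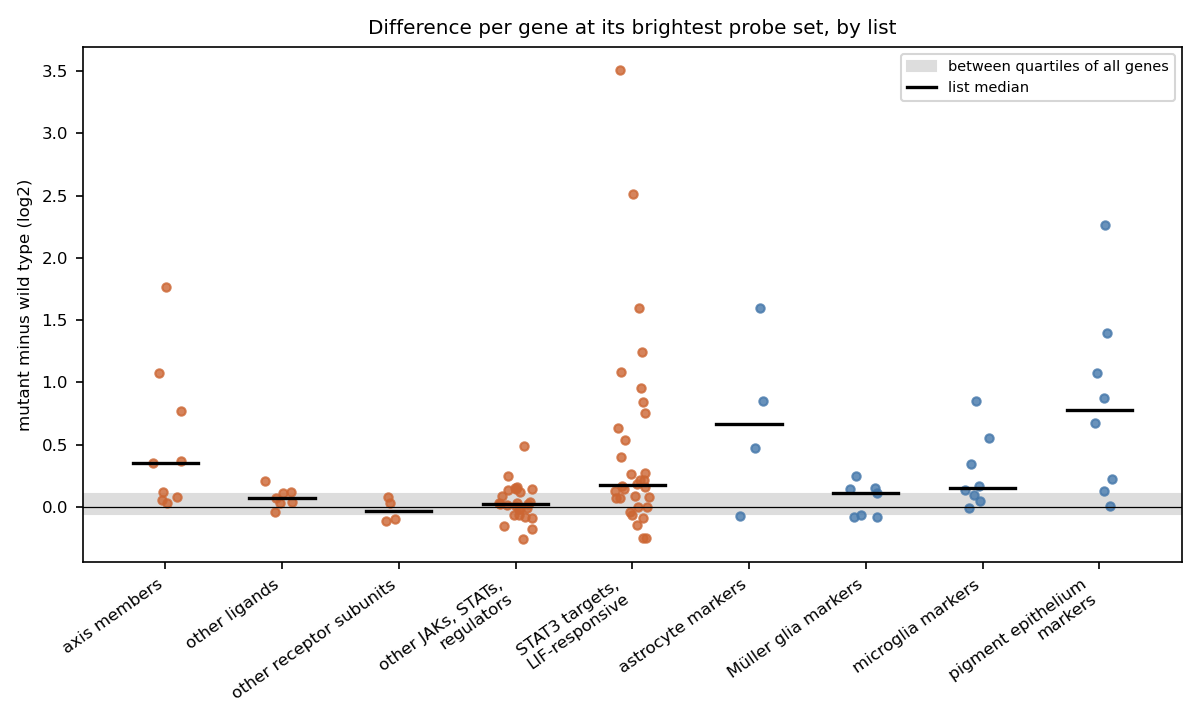
Difference between mutant and wild type on the log2 scale (vertical axis) for each gene at its brightest probe set, by list (horizontal axis), with orange points for the signalling route and blue points for cell type markers, black bars at list medians and a grey band between the quartiles of all genes. The members (median 0.35) spread from 0.03 to 1.77, and the other ligands, receptor subunits and JAK-STAT genes stay between -0.26 and 0.49.

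Across the 6 arrays, the genes outside the 10 members whose pattern was most like a member were found by Pearson r among 19569 probe sets above the median of all values. For Socs3 at its brightest probe set they were 5830448L01Rik, Sec22c, C1qc, Vamp8 and Stat5b (r from 0.983 to 0.988). For Osmr they were Ahnak, Glo1, Pgpep1, Antxr2 and Cp (0.991 to 0.995), and for Stat3 they were Samd5, Mertk, Usf1, Pla2g4c and Acan (0.971 to 0.990). At the probe sets compared here, none of these 15 genes passed the test, and their other probe sets were not looked at for this. With 3 arrays a group, such an r reflects mainly the gap between the groups, and for the brightest Stat3 probe set also the high mutant replicate 3.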

How the data were processed

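The deposited table holds log2 expression values, which the authors computed by RMA according to the submitters' processing notes. RMA subtracts background, brings the probes of all arrays to a common distribution and combines the probes of each set. Differences in total signal between arrays are thus largely removed. Genome build and RMA version were not given in the sources used here. Of 45101 probe sets 64 manufacturer controls were left out. Of the remaining 45037, 34945 have 1 gene symbol, 932 several and 9160 none here. Promoter sequences came from RefSeq (GRCm38.p6).

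Differences were tested with limma 3.58.1 (R 4.3.3, lmFit and eBayes), with group as the only term. P-values were adjusted by Benjamini-Hochberg across the 45037 probe sets, and 0.05 was the threshold. For lists, the probe set with the highest mean stands for a gene. Same-numbered arrays deviated together from their group means (r = 0.477, 0.469 and 0.563, each above 0.1), and each array was most like its own number. On this reading of the data, not of the labels, the numbers pair the arrays. The labels state no pairing, so the main fit leaves it out, and its p-values also carry the spread that same-numbered arrays share. The replicate block is the alternative that takes the pairing in. P-values measure the spread between pools, and 3 arrays a group limit the precision. The limma fits were tested on simulated data, with noise drawn independently for each array, so without the spread that same-numbered arrays share.

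The members, gene lists, tests and alternatives were chosen with earlier results of these data known, so the list counts are not independent support. Named genes were all members, up to 6 with the smallest p of each pathway list, and the 5 most like Socs3, Osmr or Stat3. Icam1, Pim2, Myc, Hamp and the cell markers named were picked after their values were seen. Alternatives were the replicate block, a filter on dim probe sets, further normalization or centring, eBayes with trend, array weights, leaving out probe sets with an a, s or x suffix, leaving out arrays, and averaging the probe sets of a gene. Figures were drawn with matplotlib 3.10.9.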

Additional observations from a re-analysis of the deposited data

How the results depend on the processing

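Of 346 values of single member probe sets under 14 alternatives, 318 kept direction and call, 4 lost the call, 2 gained it and 22 changed sign, none of which had passed. The member count past the threshold, 1, became 0 without dim probe sets and without probe sets with an a, s or x suffix. Both filters remove the called Socs3 probe set by construction. The count became 3 with array weights, where Stat3 and Osmr joined, and ran from 0 to 1 with single arrays left out. How many of all probe sets passed with array weights was not counted, so this 3 has no share to stand beside. At an unadjusted p under 0.05 the 10 member probe sets became 6 without dim probe sets, as did the 10 without overlap, since fewer probe sets enter. The members' median of 0.35 became 0.24 without dim probe sets, 0.18 without both arrays numbered 3 and 0.16 when a gene's probe sets were averaged, and ran from 0.22 to 0.41 without single arrays. The 0 target genes that passed became 1, Cebpd, with the replicate block, with array weights and without both arrays numbered 3. With the replicate block no other call of a named gene changed. There 11 member probe sets were higher and 0 lower at an unadjusted p under 0.05. Of all 45037 probe sets, 1698 were higher and 1727 lower by that fit.

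The sign of uncalled values changed for Il6st with median centring (-0.0014), for Clcf1 (-0.015) and Osm (0.043) with array weights, and without both arrays numbered 3 for Clcf1 (-0.039 and -0.013), Lif (-0.033), Il6st (-0.054) and Osm (0.10). With single arrays left out, the 3 Il6st probe sets with overlapping groups ran from -0.42 to 0.15, from -0.19 to 0.34 and from -0.10 to 0.11, Cntfr from -0.026 to 0.11 and from -0.0044 to 0.35, Lifr at its dimmest probe set from -0.030 to 0.20, Clcf1 from -0.0020 to 0.039 and from -0.042 to 0.22, and Jak2 from -0.015 to 0.082. Of other ligands and receptors, Osm ran from -0.13 to 0.10, Il31 from -0.056 to 0.18, Il12a from -0.021 to 0.081 and Il27ra from -0.075 to 0.25. The causes were not tested. Background limits the 10 of 26 members under the median of all values.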
